A study of Rattus norvegicus with 12 samples.

Results

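The miR-17-92 and miR-106b-25 clusters are a pair of related groups of microRNAs (miRNAs), each cut from a single precursor transcript. They were followed here in the hippocampal small RNA of 12 male rats of the Sprague Dawley stock, aged P70 to P80. Of 753 mature miRNAs in the count files, 9 were taken as members, 1 arm of each of the 9 hairpins of these clusters: 6 of miR-17-92 (miR-17-5p, miR-18a-5p, miR-19a-3p, miR-20a-5p, miR-19b-3p and miR-92a-3p) and 3 of miR-106b-25 (miR-106b-5p, miR-93-5p and miR-25-3p). The groups were 4 rats given vehicle and 8 rats given 4 g/kg ethanol, killed 3 h after the injection, with 1 library per rat. Rats are named below by group and animal number. The sample labels call the tissue right hippocampus and the study's methods call it dorsal hippocampus. The study describes further vehicle rats, which are not analysed here.

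A miRNA is an RNA of about the length of the sequences printed below, and it pairs with messenger RNAs mainly through its seed (bases 2 to 8), which lowers their translation and stability. Several hairpins can lie in one primary transcript. Drosha cuts the hairpins out, Dicer trims each to a duplex, and usually one arm of the duplex is kept in an Argonaute protein while the other, the passenger arm, is lost. The miR-17-92 transcript (gene MIR17HG in humans) is induced by MYC and E2F factors and is known for driving proliferation and survival of progenitor cells, including neural progenitors. The miR-106b-25 hairpins lie within the Mcm7 gene, which codes for a subunit of the replicative helicase. RefSeq places the first cluster of the rat (assembly GRCr8) on chromosome 15 in the order Mir17, Mir18a, Mir19a, Mir20a, Mir19b1, Mir92a1. The second lies on chromosome 12 within Mcm7. A further, paralogous cluster on chromosome X carries further copies of miR-17, miR-19b and miR-92a. No genome of the build used for the files was at hand, so no positions are given.

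The mature sequences are shown because they decide both which targets a member can reach and which members can be told apart by sequencing. All 9 members had a RefSeq entry (GRCr8). They are written 5′ to 3′ with the seed in capitals, grouped by seed, and miR-92b-3p is added because it shares the seed of miR-25-3p and miR-92a-3p.
rno-miR-17-5p: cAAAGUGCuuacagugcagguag
rno-miR-20a-5p: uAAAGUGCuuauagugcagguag
rno-miR-106b-5p: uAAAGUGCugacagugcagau
rno-miR-93-5p: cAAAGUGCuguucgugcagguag
rno-miR-18a-5p: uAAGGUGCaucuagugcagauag
rno-miR-19a-3p: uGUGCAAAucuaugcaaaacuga
rno-miR-19b-3p: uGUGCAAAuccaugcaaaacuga
rno-miR-92a-3p: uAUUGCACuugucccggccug
rno-miR-25-3p: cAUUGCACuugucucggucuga
rno-miR-92b-3p: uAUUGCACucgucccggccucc

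The members fall into 4 seeds. Counting positions from 1 at the 5′ end and giving the base of the first-named miRNA first, miR-19a-3p differs from miR-19b-3p only by U11C. The entries of miR-17-5p and miR-20a-5p differ by C1U and C12U over 23 bases. Over the 21 bases of miR-106b-5p, miR-17-5p differs from it by C1U, U10G and G20A. The step from miR-17-5p to miR-93-5p takes 4 changes (U10G, A11U, C12U and A13C). Between miR-92a-3p and miR-92b-3p there are 2 (U10C and G21C) over 21 bases.

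Counts are given as CPM, the usual unit of a count relative to its library's total, after scaling of the totals by the trimmed mean of M values (TMM). Library totals ran from 1960702 to 4917930 counts, so that 3 counts, taken as the smallest detectable amount, corresponded to 0.610 to 1.53 CPM (this covers counting error alone, since PCR copies of a molecule could not be told apart here). All 7 brain markers were present, with a summed level of 32112 to 40328 CPM. No pair of libraries agreed within sampling noise. Since 1 read covers a whole miRNA of 21 to 23 bases, CPM is compared between miRNAs without a length correction. How well each sequence enters a library was not measured.

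The 9 members spanned more than 2 orders of magnitude, although 6 and 3 of them respectively are made from one transcript. Over the 12 libraries, miR-93-5p averaged 626 ± 80.3 CPM (SD, n = 12; place 99 of 753). The values of miR-25-3p (600 ± 54.3 CPM, place 101) and miR-92a-3p (596 ± 114 CPM, place 102) were close to it. These 3 miRNAs together held 91.75% to 93.5% of the members' CPM in every library. The order among them was not stable: miR-93-5p exceeded miR-25-3p in 8 of 12 libraries and miR-25-3p exceeded miR-92a-3p in 7 of 12, and neighbours in this order did not differ beyond their spread.

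Next came miR-17-5p, the member that gives the first cluster its name, with 84.0 ± 8.99 CPM. Its neighbour miR-19b-3p, which carries a different seed, had 34.1 ± 7.17 CPM. The count for miR-106b-5p was 17.6 ± 4.38 CPM. The order miR-92a-3p, miR-17-5p, miR-19b-3p, miR-106b-5p held at each step in 12 of 12 libraries. Below these, miR-19a-3p had 9.65 ± 7.05 CPM, miR-20a-5p 3.21 ± 1.96 CPM and miR-18a-5p 1.95 ± 1.19 CPM. Here the order was loose, holding in 9 of 12 libraries for miR-106b-5p over miR-19a-3p, in 8 of 12 for miR-19a-3p over miR-20a-5p and in 8 of 12 for miR-20a-5p over miR-18a-5p.

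**Figure D1:**
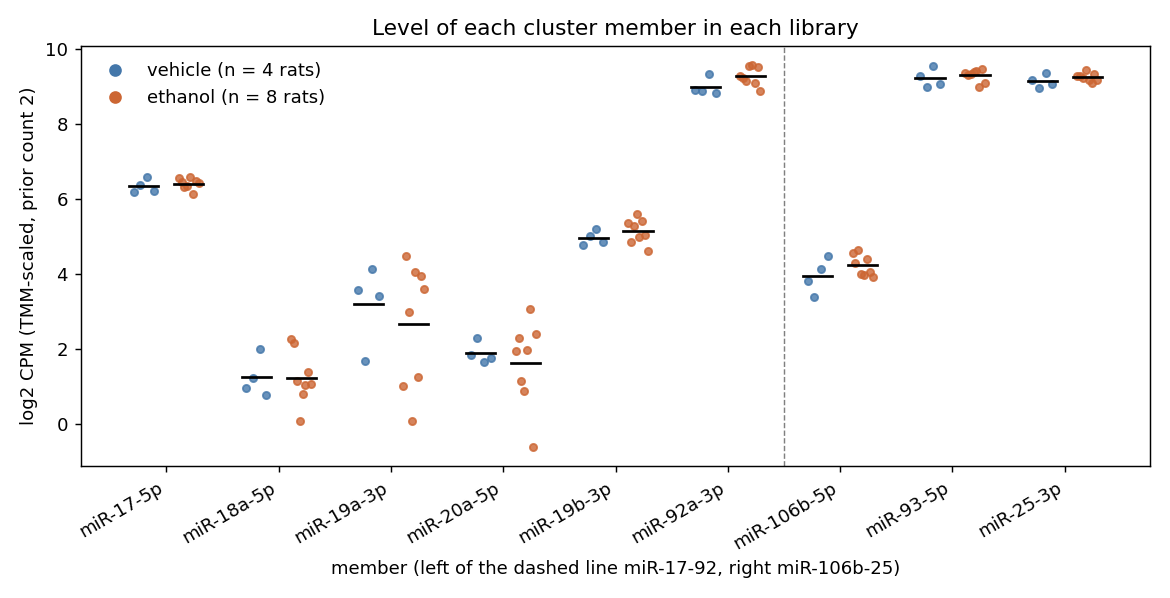
Level of each of the 9 members (log2 CPM, TMM-scaled, prior count 2) in the 4 vehicle and 8 ethanol libraries; each point is a rat and each black bar a group mean. The points of miR-92a-3p, miR-93-5p and miR-25-3p lie together at the top, miR-18a-5p, miR-19a-3p and miR-20a-5p scatter at the bottom, and vehicle and ethanol points overlap for every member.

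Within the miR-17-92 transcript the yield was very uneven. The last hairpin, miR-92a, gave 78.9% to 85.2% of the cluster's counts in each library, and miR-17-5p gave 9.14% to 14.3%. Pooled over the libraries there were 21788 counts of miR-92a-3p and 70 of miR-18a-5p, a ratio of 311. The 70 reads of miR-18a-5p were spread as 1 to 16 per library, which is a pooled level of 1.91 CPM (exact 95% Poisson interval 1.49 to 2.41). That interval covers counting error alone, and single libraries ran from 0.404 to 4.17 CPM. In the miR-106b-25 transcript, miR-93-5p (47.1% to 53.4% of the cluster) and miR-25-3p (45.4% to 51.0%) were read about equally, whereas miR-106b-5p gave 0.956% to 1.99%. Both clusters together made up 0.170% to 0.222% of each library's counts.

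The mature names alone do not say which copy a read came from, since miR-17-5p, miR-19b-3p and miR-92a-3p can each be cut from 2 hairpins, one on chromosome 15 and one on chromosome X. Passenger arms differ between the copies. Those of the chromosome 15 copies were read as 4 to 27 counts of miR-17-1-3p and 1 to 19 counts of miR-92a-1-5p per library, and miR-19b-1-5p had 0 to 1. Of the chromosome X copies, miR-17-2-3p had at most 1 count per library, and miR-19b-2-5p and miR-92a-2-5p were listed at 0 in 12 of 12. Other products of the chromosome X cluster, miR-20b-5p, miR-20b-3p and miR-363-5p, were at 0 after rounding as well, while miR-363-3p had 8 to 29 counts. A count of 0 allows up to 0.610 to 1.53 CPM, except for miR-20b-5p, whose reads were divided with those of miR-17-5p, so that its 0 sets no such limit.

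Which arm of a hairpin was read more differed from one hairpin to the next. In 7 of the 9 hairpins the member was also the main arm. The arm shares were pooled over the 12 libraries, with Wilson 95% intervals for the 5′ arm that cover counting error alone. The shares were 94.99% 5′ arm for miR-17 (94.2% to 95.7%), 99.7% 5′ arm for miR-93 (99.656% to 99.8%) and 1.05% 5′ arm for miR-25 (0.920% to 1.19%). From library to library the 5′ share ran from 92.2% to 97.4% for miR-17, 99.6% to 100% for miR-93 and 0.681% to 1.49% for miR-25. The 3′ arm made up 99.6% for miR-92a, 99.8% for miR-19b and 94.6% for miR-19a, and the 5′ arm 75.5% for miR-20a.

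The other 2 hairpins went the other way. From miR-106b, the arm named miR-106b-3p gave 1503 reads and the member miR-106b-5p gave 641, so that the 3′ arm held 70.1% of the reads and was ahead in 12 of 12 libraries. However, the reads of miR-106b-5p were divided with those of miR-17-5p and miR-20a-5p, as described below. It was given 10.2% to 23.2% of the divided sum, so which arm of miR-106b led depends on that division. At 41.2 ± 7.58 CPM, miR-106b-3p was also above miR-19b-3p on average. From miR-18a, the 3′ arm had 148 reads and the 5′ arm 70, a pooled 5′ share of 32.1% (26.3% to 38.6%). From library to library this share ran from 9.09% to 60.0%, with the 3′ arm ahead in 10 of 12 libraries. The hairpin of miR-18a, with both arms in capitals, is shown beside that of miR-93, the most one-sided of the hairpins whose member is a 5′ arm. The hairpin of miR-106b is named only.
Mir18a: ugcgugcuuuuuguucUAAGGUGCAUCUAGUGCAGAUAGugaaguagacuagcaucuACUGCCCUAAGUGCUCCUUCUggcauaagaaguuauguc
Mir93: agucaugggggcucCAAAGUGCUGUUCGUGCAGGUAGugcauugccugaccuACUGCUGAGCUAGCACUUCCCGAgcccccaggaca

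**Figure D2:**
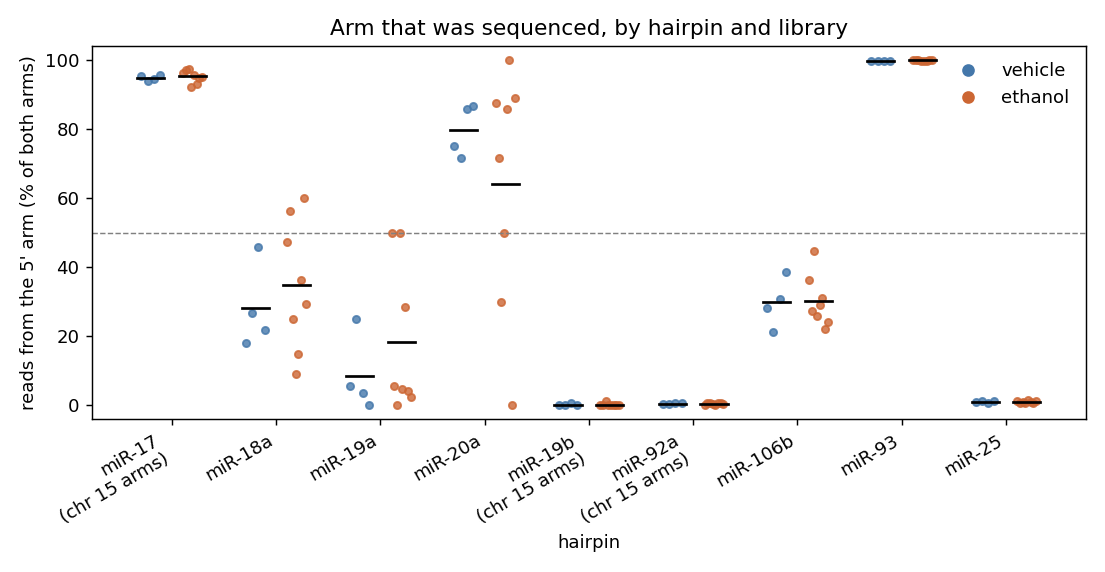
Share of reads from the 5′ arm (percent of both arms, y axis) for each hairpin (x axis); points are rats, black bars are group means and the dashed line marks equal reads. The miR-106b points lie between 21.3% and 44.8% in all 12 libraries, while miR-93 and miR-17 lie near the top and miR-25, miR-92a and miR-19b near 0.

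The near-identical members were not counted independently of each other. The deposited counts are fractional where a read was divided among miRNAs, and miR-19a-3p and miR-19b-3p had fractional counts in 11 of 12 libraries each. Their sum was a whole number, within 0.02, in 12 of 12. In ethanol rat 8 miR-19a-3p was given 1.01% of that sum, and in ethanol rat 4 it was given 43.2%. As a result the CPM of miR-19a-3p spread 53.7-fold over the libraries and that of miR-19b-3p 2.02-fold, but their sum (43.8 ± 6.03 CPM) only 1.54-fold. The separate values of miR-19a-3p are therefore uncertain, and its ratios to other members carry that division.

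The same held for miR-17-5p and the others of its seed apart from miR-93-5p. The sum of miR-17-5p, miR-20a-5p, miR-20b-5p and miR-106b-5p was whole in 11 of 12 libraries. It averaged 105 ± 9.18 CPM and spread 1.35-fold, while miR-106b-5p on its own spread 2.52-fold and miR-20a-5p went down to 0 in ethanol rat 23. By contrast, miR-93-5p and miR-25-3p were fractional in 1 library each and miR-18a-5p in 0 of 12. Fractional counts of miR-92a-3p occurred in 11 of 12, and its sum with miR-92b-3p was whole in 0 of 12, so what it shared reads with is not known.

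**Figure D3:**
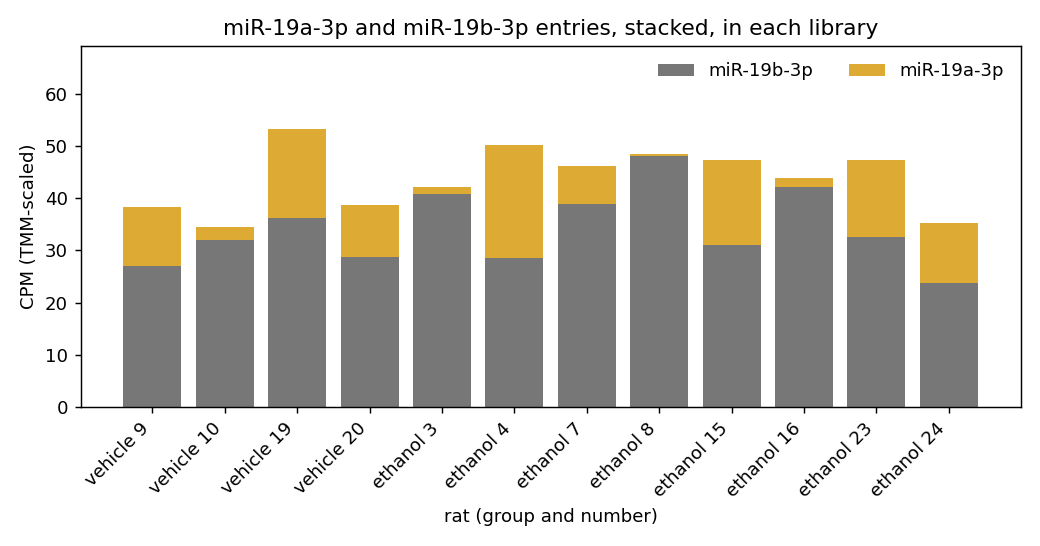
CPM of miR-19b-3p (grey) and miR-19a-3p (yellow), stacked, in each of the 12 libraries. The stacks reach 34.5 to 53.2 CPM, while the yellow part runs from 0.404 CPM in ethanol rat 8 to 21.7 CPM in ethanol rat 4.

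Grouped by seed, each family of several listed miRNAs had the same leading miRNA in every library. For AAAGUGC, miR-93-5p held 83.7% to 87.7% of the family's CPM (731 ± 85.6 CPM, n = 12) and miR-17-5p 10.05% to 13.7%. For GUGCAAA, miR-19b-3p held 56.8% to 99.2%, a share that carries the division of its reads with miR-19a-3p. The seed AAGGUGC was carried, among the listed miRNAs, by miR-18a-5p alone. For AUUGCAC, the dominant miRNA was no member: miR-92b-3p, encoded by a hairpin of its own, averaged 9686 ± 915 CPM (place 19 of 753). Consequently miR-25-3p and miR-92a-3p together held 8.91% to 12.9% of the 10894 CPM read with that seed. The other carriers, miR-32-5p and miR-363-3p, had 6.19 ± 1.32 and 6.16 ± 2.38 CPM.

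Ratios of members within a library need no scaling factor, and they separated steady pairs from loose ones. The log2 ratio of miR-93-5p to miR-25-3p, from neighbouring hairpins, had a mean of 0.06 and an SD of 0.11 over the 12 libraries (counting error alone would give 0.05). Of 7626 pairs among the 124 miRNAs with a mean of at least 300 CPM, 3.36% had a smaller SD. The ratio of miR-92a-3p to miR-17-5p, both products of miR-17-92, had an SD of 0.22 (counting error 0.10). For miR-93-5p to miR-17-5p, which are members of different clusters, the SD was 0.15. Over the 15 pairs within miR-17-92 the SD had a median of 1.48 and reached 2.32 for miR-19a-3p to miR-20a-5p, both of which share reads with other members. Counting error in these pairs is large too: alone it would give 0.92 for miR-19a-3p to miR-20a-5p and 0.78 for miR-19b-3p to miR-20a-5p, whose SD was the median. For miR-92a-3p to miR-19a-3p the SD was 1.71 and counting error 0.51. Pairs have members in common, so these SDs are not independent of each other.

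The members, their arms, the chromosome X paralogues, the seed relatives and the brain, blood, choroid plexus and muscle markers were set aside. Among the rest, the miRNAs with the steadiest ratio to each cluster's summed counts were picked by the SD of that log2 ratio over 12 libraries. For miR-17-92 they were miR-21-5p (0.13), miR-181b-5p (0.15) and miR-181a-5p (0.15), against a median of 0.35 over 385 miRNAs. For miR-106b-25 they were miR-21-5p (0.070), miR-192-5p (0.077) and miR-181a-5p (0.094), against a median of 0.29.

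The level of miR-93-5p varied from rat to rat with that of miR-219a-2-3p, and miR-92a-3p and miR-25-3p followed less closely. MiR-219a-2-3p is a miRNA of mature oligodendrocytes and was among the brain markers. The other brain markers were not set against the members over the 12 libraries. Each of them was lower in vehicle rat 19 than in vehicle rat 10, whereas miR-93-5p was higher (748 against 511 CPM). The comparison with miR-219a-2-3p was chosen after the values were seen. The p-values of these correlations, adjusted ones included, do not cover that choice and are given as description only. On the log2 CPM scale over 12 libraries, the correlation of miR-93-5p with miR-219a-2-3p was Pearson r = 0.93 (permutation p = 0.00012, adjusted over 419 miRNAs 0.00838) and Spearman rho = 0.90 (permutation p = 0.00021, adjusted 0.0230). It was the highest r among the 419 other miRNAs, ahead of the 5′ arm product miR-219a-5p (0.93, place 2) and of miR-338-3p, another oligodendrocyte miRNA (0.92, place 4). Vehicle rats 10 and 20 and ethanol rats 16 and 24 had the 4 lowest levels of both miR-93-5p and miR-219a-2-3p. Among the 8 libraries above the largest gap in miR-219a-2-3p, r for miR-93-5p was 0.79, and without the 2 libraries farthest from the median of miR-219a-2-3p it was 0.96.

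For miR-92a-3p the correlation with miR-219a-2-3p was r = 0.81 (permutation p = 0.00258, adjusted 0.0802) and rho = 0.85 (permutation p = 0.00106, adjusted 0.0482), at place 11 of 419. Without the 2 farthest libraries r was 0.70, and among the 8 higher libraries it was 0.60. The value for miR-25-3p was r = 0.74 (permutation p = 0.00615, adjusted 0.172) and rho = 0.66 (permutation p = 0.0245, adjusted 0.428), with r = 0.75 without the 2 farthest libraries and 0.27 among the 8 higher ones, so that this relation rests largely on the 4 lower libraries. The other members did not follow this pattern alike. For miR-17-5p r was 0.56 (permutation p = 0.0574, adjusted 0.547) and rho 0.58 (permutation p = 0.0519, adjusted 0.588). For miR-20a-5p, whose reads are divided with those of miR-17-5p, r was -0.60 (permutation p = 0.0289, adjusted 0.404; place 410 of 419) and rho -0.61 (permutation p = 0.0404, adjusted 0.486). The values of r were 0.35 for miR-19b-3p, 0.14 for miR-19a-3p, 0.0068 for miR-106b-5p and 0.14 for the seed relative miR-92b-3p. In whole tissue, more cells of a type and more RNA per cell cannot be told apart.

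**Figure D4:**
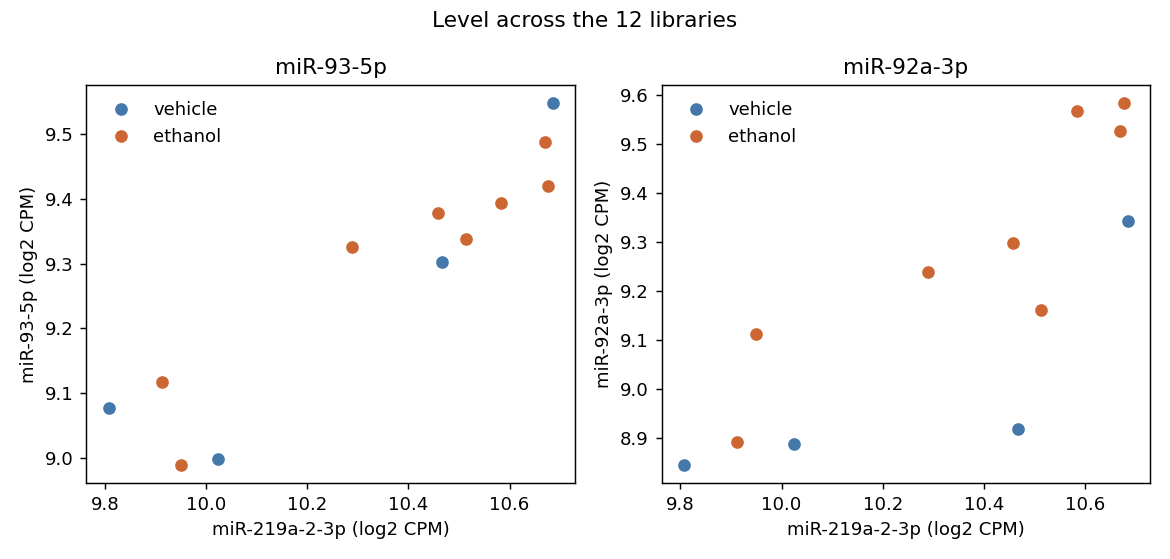
Level of miR-93-5p (left) and miR-92a-3p (right) against miR-219a-2-3p (all in log2 CPM) in the 4 vehicle and 8 ethanol libraries, one point per rat. In the left panel both groups follow one rising line with 4 libraries at its lower end. In the right panel most ethanol points lie above vehicle points of a like miR-219a-2-3p level, a difference that was not tested.

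The study's question for these libraries was whether acute ethanol changes miRNA levels in the hippocampus. A miRNA was tested if it was read at least 10 times in at least 3 libraries. This kept 8 of the 9 members and 420 of 753 miRNAs, and miR-18a-5p fell below it. With edgeR's quasi-likelihood test, 0 of the 8 members reached an adjusted p under 0.05, and 0 of 8 reached a raw p under 0.05. Over all 420 miRNAs the first threshold was passed by 0 (0% of miRNAs) and the second by 17 (4.05% of miRNAs). The groups of 0 of the 8 members were free of overlap, against 0.238% of all miRNAs. On the fitted log2 fold change, 7 members lay above 0 and 1 below, with a median of 0.12. Over all 420 miRNAs, 193 lay above 0 and 227 below, with a median of -0.02.

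The member nearest to the threshold was miR-92a-3p, which is abundant in endothelial and blood cells as well as in brain. Its counts were fractional in 11 of 12 libraries, and what it shared reads with is not known. Its level was 484, 473, 649 and 459 CPM in vehicle rats 9, 10, 19 and 20, and 474, 616 and 766 CPM as the lowest, median and highest of the ethanol rats. Vehicle rat 19 stood above the other 3 vehicle rats and above 5 of the ethanol rats, and 7 of 8 ethanol rats were above the vehicle mean. The fitted log2 fold change was 0.30 (SE 0.14, 95% interval -0.0024 to 0.61, raw p = 0.0516, adjusted p = 0.971), and the two-sided exact permutation test over 495 splits gave p = 0.0727 (the smallest it can give is 0.00202). The raw p ran from 0.0105 without vehicle rat 19, where the log2 fold change was 0.41, to 0.145 without vehicle rat 20, where it was 0.23. The lowest adjusted p among all alternatives in which its raw p was under 0.05 was 0.723.

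Levels of the markers of other cells are set beside this result. Of 7 blood cell markers 6 were listed, none of them at 0 in any library, and their summed level was 447 to 592 CPM in vehicle and 311 to 741 CPM in ethanol rats. For the 3 choroid plexus markers the range was 28978 to 50266 CPM in vehicle and 16516 to 70880 CPM in ethanol rats. In the edgeR fit with the blood marker mean as a covariate the log2 fold change of miR-92a-3p was 0.29, and with the choroid plexus mean it was 0.29, each on the same side of the threshold as without a covariate. The 5 muscle markers were lower on average in the ethanol rats, with a summed level of 1301 ± 784 CPM in vehicle (SD, n = 4; range 129 to 1765) and 382 ± 542 CPM in ethanol rats (SD, n = 8; range 113 to 1712). Vehicle rats 9, 19 and 20 and ethanol rat 16 held the high levels. Of the 3 retained muscle markers 1 had a raw p under 0.05, miR-133a-3p with a log2 fold change of -1.99 (SE 0.72, adjusted p = 0.971). The part of the muscle markers in the result was not tested. The level of miR-219a-2-3p was 895 to 1646 CPM in vehicle and 962 to 1637 CPM in ethanol rats, and its part in the result was not tested.

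Of the 2 other abundant members, miR-93-5p had 631, 511, 748 and 539 CPM in vehicle rats 9, 10, 19 and 20, and 507, 656 and 717 CPM as the lowest, median and highest of the ethanol rats. The highest value was that of vehicle rat 19 and the lowest that of ethanol rat 16, and the groups overlapped over nearly their whole range. The log2 fold change was 0.07 (SE 0.12, 95% interval -0.18 to 0.31). For miR-25-3p, the partner of miR-93-5p in Mcm7, vehicle rats had 585, 504, 659 and 539 CPM and ethanol rats 549, 614 and 696 CPM (lowest, median, highest). Of the 8 ethanol rats 7 were above the vehicle mean, 1 was above every vehicle rat, and the log2 fold change was 0.10 (SE 0.08, 95% interval -0.08 to 0.28).

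For the mid-range members the differences were within the error of the fit. The vehicle rats had 72.3, 83.0, 96.7 and 73.8 CPM of miR-17-5p, and the ethanol rats 70.2, 86.5 and 95.8 CPM (lowest, median, highest), with a log2 fold change of 0.07 (SE 0.11). The highest value of miR-17-5p was again that of vehicle rat 19. For miR-19b-3p the vehicle values were 27.1, 31.9, 36.2 and 28.7 CPM and the ethanol values 23.8, 35.6 and 48.1 CPM, with a log2 fold change of 0.20 (SE 0.17). Of the ethanol rats 4 of 8 were above every vehicle rat for miR-19b-3p and 1 was below. The vehicle values of miR-106b-5p were 13.5, 9.79, 17.03 and 21.9 CPM and the ethanol values 14.7, 17.6 and 24.6 CPM, with a log2 fold change of 0.21 (SE 0.21). This value for miR-106b-5p was 0.077 without vehicle rat 10 and 0.41 without vehicle rat 20.

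The least abundant members had the widest spread: miR-18a-5p and miR-20a-5p had few reads, and miR-19a-3p carried the division of reads described above. The level of miR-19a-3p was 11.2, 2.55, 17.03 and 10.0 CPM in vehicle rats and 0.404, 9.40 and 21.7 CPM in ethanol rats, with a log2 fold change of -0.15 (SE 0.65) that turned to 0.19 without vehicle rat 19. For miR-20a-5p the values were 2.97, 4.26, 2.52 and 2.77 CPM in vehicle and 0, 3.27 and 7.72 CPM in ethanol rats, with a log2 fold change of 0.13 (SE 0.55) that turned to -0.17 without ethanol rat 16. For miR-18a-5p, vehicle rats had 4, 4, 16 and 5 reads and ethanol rats 1 to 9. When reads that were divided among miRNAs were added up again before the fit, an alternative chosen after the data were seen, miR-19a-3p plus miR-19b-3p had a log2 fold change of 0.11 (SE 0.12, adjusted p = 0.934). The sum of miR-17-5p, miR-20a-5p, miR-20b-5p and miR-106b-5p had one of 0.08 (SE 0.09, adjusted p = 0.934). Both SEs were below those of the separate entries.

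**Figure D5:**
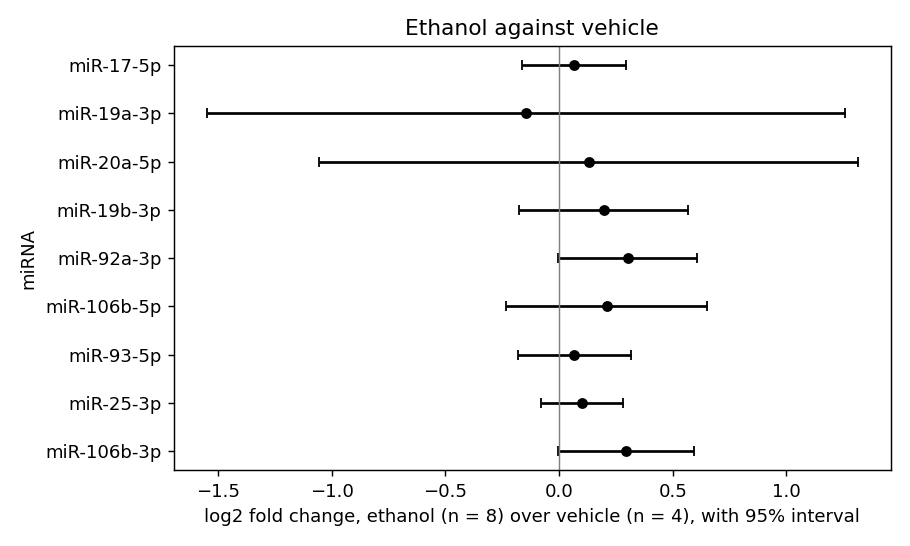
Fitted log2 fold change of ethanol (n = 8) over vehicle (n = 4) for the 8 tested members and miR-106b-3p, with 95% intervals. All 9 intervals include 0; those of miR-92a-3p (from -0.0024) and miR-106b-3p (from -0.0030) end next to it, and those of miR-19a-3p and miR-20a-5p are the widest.

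Among the 12 passenger arms, 5 were retained and 0 of these had a raw p under 0.05. The arm nearest to the threshold was miR-106b-3p, the arm of its hairpin with more counted reads. Its level was 34.3, 36.2, 38.1 and 34.9 CPM in the vehicle rats and 30.4, 45.03 and 56.4 CPM in the ethanol rats. The vehicle rats lay close together, 6 of 8 ethanol rats were above all of them and 1 was below. The log2 fold change was 0.29 (SE 0.14, raw p = 0.0520, adjusted p = 0.971; exact permutation p = 0.0808). The passenger arm miR-93-3p, which was not retained, had 7, 4, 13 and 9 reads in vehicle and 0 to 7 in ethanol rats. On the log2 CPM scale 6 of 8 ethanol rats were below every vehicle rat for miR-93-3p (exact permutation p = 0.0323, unadjusted). That was the lowest p among the 12 passenger arms given this test, and the share over all miRNAs was not computed. With so few reads, no change with ethanol is read from it.

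The 3 retained seed relatives outside the clusters had a log2 fold change of 0.04 (SE 0.09) for miR-92b-3p, 0.04 (SE 0.19) for miR-32-5p and 0.29 (SE 0.32) for miR-363-3p, and 0 of 3 had a raw p under 0.05. The log2 fold changes of miR-92b-3p and miR-92a-3p share the same control libraries and stand side by side here as 0.04 and 0.30. The difference between them was not tested.

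Ratios between members gave the ethanol comparison without a scaling factor. The log2 ratio of miR-92a-3p to miR-17-5p was 2.66 ± 0.11 in vehicle (n = 4) and 2.88 ± 0.23 in ethanol rats (n = 8). It lay between 2.51 and 2.74 in vehicle rats, and 7 of 8 ethanol rats were above that range and 1 was below it. For miR-93-5p to miR-92a-3p the log2 ratio was 0.23 in vehicle and 0.0085 in ethanol rats on average, and 6 of 8 ethanol rats were below every vehicle rat. For miR-93-5p to miR-25-3p it was 0.08 and 0.05. The groups overlapped in all 36 pairs of members. The share of pairs without overlap was not computed over all miRNAs. Among single miRNAs 0.238% of 420 had groups free of overlap, a share that does not carry over to ratios of pairs. Whether the overlap in these pairs, or the counts of ethanol rats outside the vehicle range, are particular to the members was not tested.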

How the data were processed

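Small RNA from the hippocampus of 12 rats (4 vehicle, 8 ethanol) was sequenced. The values deposited by the authors are expected counts (estimated counts, not scaled) for 753 mature miRNAs per library. The submitters' processing notes name Partek, cutadapt and the genome build rn5; how shared reads were divided is not given in the sources used here. The study's own steps removed rare miRNAs, normalised to the median and compared groups without correction.

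Counts were rounded to whole numbers. MiRNAs read at least 10 times in at least 3 libraries were retained (420). Ethanol was compared with vehicle by edgeR 4.0.16 (R 4.3.3; TMM, quasi-likelihood, Benjamini-Hochberg over all 420), checked on simulated counts. Log2 CPM used a prior count of 2. Ratios used counts plus 0.5. Alternatives used DESeq2 1.42.0, limma 3.58.1, other scalings, filters and covariates, and each rat left out. Correlations used permutations (SciPy 1.17.1, Python 3.11.15).

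Members and lists were chosen with earlier results of these data known. The text names the members, their passenger arms, the chromosome X paralogues and seed relatives. Per cluster it also names the 3 miRNAs with the steadiest ratio to it, picked outside these lists and the marker lists. Added after values were seen were miR-219a-2-3p, miR-219a-5p and miR-338-3p with the correlations, and the muscle miRNAs miR-1b, miR-133a-3p and miR-133b-3p, which are on the muscle marker list. Of 6 chromosome X names, miR-106a-5p and miR-18b-5p are not in the lists of counts, nor is the blood marker miR-486. Sequences are RefSeq's, of assembly GRCr8, which 688 of the 753 names matched. Totals of 1960702 to 4917930 counts set the precision. The labels do not say in which sequencing set a library was run, so sets were not compared. Rats are separate animals.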

Additional observations from a re-analysis of the deposited data

Results flagged for a closer look

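One group among 30 examined (15 miRNAs in 2 groups) had a library far from the rest, where chance would give about 1.5. It was miR-92a-3p in the vehicle rats. Rat 19 stood at 9.34 log2 CPM and the other 3 at 8.85 to 8.92, and its gap to the nearest was 0.85 of the group's whole range. Rat 19 also had the largest library (4917930 counts) and the highest miR-93-5p and miR-219a-2-3p levels of the 12. With rat 19 left out, edgeR gave miR-92a-3p a log2 fold change of 0.41 in place of 0.30 (adjusted p = 0.723, against 0.971 with it).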

How the results depend on the processing

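Among all miRNAs, DESeq2 gave 1 call at an adjusted p under 0.05, for miR-133b-3p, and leaving out a rat gave 0 to 3, the 3 without ethanol rat 16 (miR-1b, miR-133a-3p and miR-133b-3p); all are muscle markers and none is a member. The count at a raw p under 0.05 was 11 with the library total as a covariate, and 5 (without vehicle rat 20) to 28 (without ethanol rat 24) when a rat was left out. The count of members at a raw p under 0.05 was 1 in place of 0, always miR-92a-3p, with DESeq2-style size factors, no filter, filterByExpr, DESeq2 and the library total covariate, and was 0 to 1 with a rat left out (1 without vehicle rat 19 or ethanol rats 4, 7, 16 or 24). The log2 fold change of miR-92a-3p stayed positive in all 24 alternatives (0.23 to 0.41). That of miR-19a-3p turned to 0.49 with the library total covariate and ran from -0.39 to 0.19 with a rat left out. For miR-20a-5p it turned to -0.25 with limma-trend and -0.38 with limma on median-scaled counts, and ran from -0.17 to 0.35 with a rat left out. For miR-93-5p it ran from -0.0030 (without vehicle rat 20) to 0.16. The cause of these turns was not tested. For miR-106b-5p it ran from 0.077 to 0.41. The group difference (ethanol minus vehicle) of the log2 ratio ran, with a rat left out, from 0.18 to 0.29 for miR-92a-3p to miR-17-5p, and changed sign for miR-93-5p to miR-25-3p (-0.06 to 0.0030) and for miR-19a-3p to miR-20a-5p (-0.92 without ethanol rat 23 to 0.30 without ethanol rat 16). No paired analysis was possible because the labels link no vehicle rat to an ethanol rat, for example by litter or cage. The study housed rats in pairs and allowed littermates within a condition. Whether rats of a group shared a cage or litter is not known. Depth limits miR-18a-5p, miR-20a-5p and the minor arms. The division of reads limits miR-19a-3p, miR-20a-5p and miR-106b-5p, with the arm shares of their hairpins. Counts of miR-17-5p were fractional in 12 of 12 libraries and those of miR-92a-3p in 11 of 12, so their levels and ratios carry a division too. For miR-92a-3p the divided reads could not be added up again. The 4 vehicle rats limit every comparison.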
